A study of Drosophila melanogaster with 27 samples.

Results

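The X-linked genes of Drosophila melanogaster were followed across 9 groups of adult females that all carried 2 X chromosomes. A gene was taken when it lies on the X, had a probe set annotated to that gene alone (the highest probe set where there were several) and had a mean above 6 on the log2 scale in the 3 wild type arrays, which is the level below which the study treated genes as not measured. Of 1883 X-linked genes with a probe set of their own, 1230 passed that level, and 647 that the rule did not leave out by name were at or below it. The rule left out 45 of the 1230 by name, such as ribosomal protein, proteasome, NADH dehydrogenase and cytochrome P450 genes and y, per, v and Act5C. This left 1185 X-linked genes of 7386 expressed genes on all chromosomes. The wild type level was used to choose the genes and is given only as a description. It ran from 6.01 to 14.13 with quartiles at 7.34, 8.33 and 9.26. The genes just outside the limit were Neto at 5.99, Cubn at 6.0 and CG4617 at 6.0, and those just inside were dpr18 at 6.01, AdamTS-B at 6.02 and CG43386 at 6.02.

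RNA came from 10 females per replicate, collected within a day of eclosion and raised at 25 °C, and each group had 3 biological replicates on Affymetrix Drosophila version 2 arrays. Wild type was the y1 w67c23 strain. The 3 deficiency groups lacked a copy of a segment of an autosome and came from a balanced deficiency stock crossed to Oregon R. They were Df(2L)J-H/+, carried over the balancer SM5 in its stock, Df(2L)ED4651/+, over SM6a, and Df(3L)4470/+, over TM6C, and lists of 3 values follow that order. The last name is that of the sample labels, whereas the design text of the series has Df(2L)ED4470. Haplo 4th females had 1 copy of chromosome 4 and came from wild type crossed to the compound chromosome 4 stock C(4)RM sv-spa-pol/0, while Df(2L)J-H/+ haplo 4th females, called the haplo 4th deficiency group, came from the J-H deficiency stock and the same compound stock. The Dp(2;2)Cam3/+ triplo 4th females combined a second chromosome duplication with 3 copies of chromosome 4 and came from a cross of the balanced duplication stock to C(4)RM. Haplo 4th flies carrying the deficiency were picked by their Minute phenotype, and the paper states that those without it were generated similarly. The duplication triplo 4th flies were picked by the absence of that phenotype. Arrays labelled pof-mutant were of females from their own y1 w67c23 stock homozygous for Pof-D119. Arrays labelled pof-mutant triplo 4th were of females from a cross of that stock to Pof119/CyO flies with the compound chromosome 4. The X chromosomes of the groups therefore came from different parents, so genotype, cross and strain background cannot be told apart in any comparison with wild type. Chromosome arms 2R and 3R also had 2 copies in every group, and their 3209 genes that met the same rule served as the comparison.

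Females of Drosophila have a pair of X chromosomes and males a single X, and male X-linked genes are raised by the MSL complex, which does not form in females because Sex-lethal (Sxl) blocks the translation of msl-2. Chromosome 4 has a chromosome-wide regulator of its own, the protein POF, which binds genes of that chromosome. The X carries many genes with roles in the ovary, among them yolk proteins (Yp1, Yp2, Yp3), eggshell proteins (dec, Cp36, Cp38) and maternal factors such as wispy (wisp) and Zelda (zld).

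Replicate arrays correlated at 0.94 to 0.99 in the wild type, deficiency and haplo 4th groups. The correlations ran from 0.84 to 0.95 in Dp(2;2)Cam3/+ triplo 4th, and under the labels pof-mutant and pof-mutant triplo 4th they ran from 0.62 to 0.90 and from 0.67 to 0.92. Replicate 2 of both pof-mutant labels stood apart. The SD of the log2 ratios over X-linked genes was 1.36 for pof-mutant replicate 2 and 0.96 for pof-mutant triplo 4th replicate 2, against 0.30 to 0.43 for the wild type arrays. X means, counts of calls and named calls under these labels are given with and without that replicate. The female label was checked with 11 genes of the male reproductive tract, of which 0 were above 6 in any group. The Pof probe set did not fall under the label pof-mutant. Its deposited levels were 7.68, 7.44 and 7.92 in wild type, 9.15, 11.01 and 8.95 in the arrays labelled pof-mutant and 7.0, 9.04 and 7.38 in those labelled pof-mutant triplo 4th. Its mean was 6.25, 6.12 and 6.20 in the 3 deficiency groups, so its level also differed where no Pof mutation was carried. Whether the probe set lies in the part of Pof that the mutation removes is not given in the sources used here. With all replicates, the mean log2 ratio of 50 chromosome 4 genes was −0.45 under the label pof-mutant. It was 0.05 under the label pof-mutant triplo 4th and 0.49 in Dp(2;2)Cam3/+ triplo 4th. These means were lower under the labels, which is the direction a loss of POF would give according to the paper. The genotype itself was not tested, so every direction reported for these arrays rests on their label. Of 13 ovary germline markers measured, 12 were above 6 in wild type and none lies on the X. Their mean deposited level was 9.64 ± 0.11 (SD, n = 3) in wild type and 8.48 ± 0.02, 8.18 ± 0.25 and 8.62 ± 0.44 in the 3 deficiency groups. It was 9.05 ± 0.17 in haplo 4th, 8.73 ± 0.74 in the haplo 4th deficiency group and 8.92 ± 0.84 in Dp(2;2)Cam3/+ triplo 4th, and it was 9.87 ± 0.54 in the arrays labelled pof-mutant and 9.57 ± 0.70 in those labelled pof-mutant triplo 4th. The markers did not all move together. Of the 13, 4, 2 and 4 were above their wild type mean in the 3 deficiency groups and 3 in haplo 4th. In the haplo 4th deficiency and duplication groups 2 each were above it, and under the labels pof-mutant and pof-mutant triplo 4th 7 and 4 were. Eggshell markers varied within groups, from 7.24 to 10.87 among the wild type arrays, from 5.34 to 12.10 in Dp(2;2)Cam3/+ triplo 4th and from 5.62 to 12.56 in pof-mutant triplo 4th. In whole flies, fewer germline cells and less RNA per germline cell cannot be told apart.

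The mean of the X-linked genes, taken relative to 2R and 3R on the same array and to wild type, was below wild type in the duplication group, both haplo 4th groups and the 3 deficiency groups. The 3 arrays lay between −0.19 and −0.16 for Df(2L)J-H/+, between −0.19 and −0.16 for Df(2L)ED4651/+ and between −0.20 and −0.14 for Df(3L)4470/+, with the wild type arrays between −0.01 and 0.02. The group means were −0.17 ± 0.01, −0.17 ± 0.01 and −0.16 ± 0.03 (SD, n = 3) on the log2 scale, or 88.7%, 88.6% and 89.2% of the wild type ratio of X to 2R and 3R. All 9 deficiency arrays were below all 3 wild type arrays, and the 3 deficiency groups overlapped each other. Haplo 4th had −0.10 ± 0.01, with arrays from −0.11 to −0.10, and the haplo 4th deficiency group had −0.10 ± 0.05, from −0.15 to −0.05. Dp(2;2)Cam3/+ triplo 4th had −0.06 ± 0.05, from −0.10 to −0.00, and its highest array overlapped wild type. The arrays labelled pof-mutant had 0.08 ± 0.10, from −0.02 to 0.18, and those labelled pof-mutant triplo 4th had 0.04 ± 0.09, from −0.05 to 0.13. The spread under both pof-mutant labels was at least as wide as their distance from wild type. Without replicate 2 these 2 differences were 0.03 and −0.01. As a mean over chosen genes, this measure is given without a test.

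**Figure D1:**
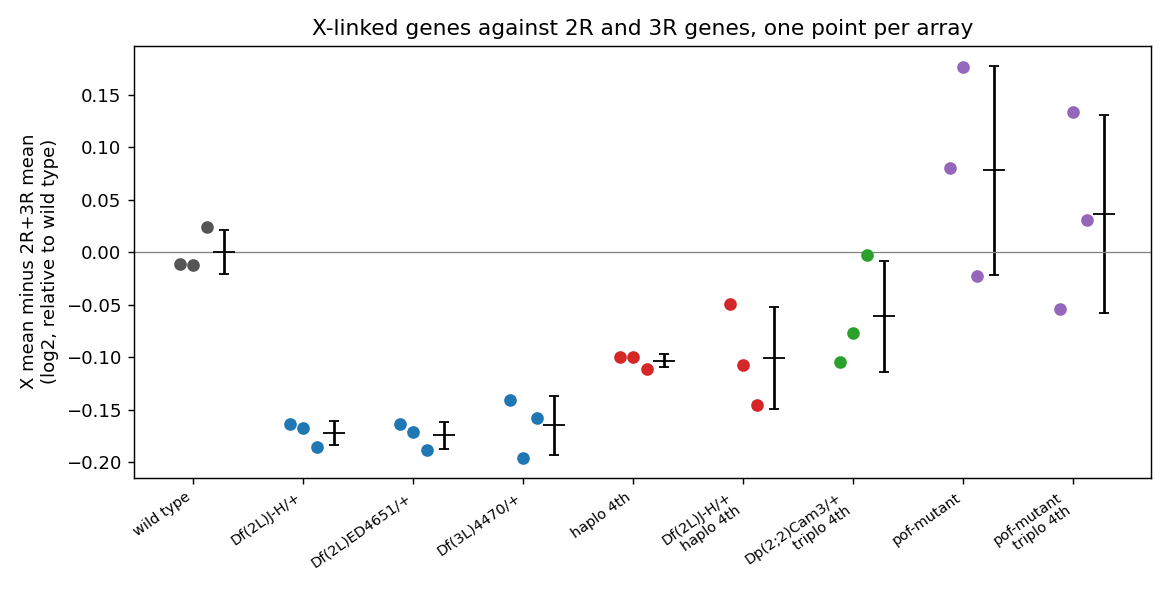
Mean log2 level of 1185 X-linked genes minus that of 3209 genes on 2R and 3R, relative to the wild type mean (y axis, log2), for each array of the 9 groups (x axis). Points are arrays and bars the mean ± SD (n = 3). The 9 deficiency arrays lie between −0.20 and −0.14, below the wild type arrays at −0.01 to 0.02, and the pof groups spread across 0.

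The level of the ovary germline markers differed between the groups as well, and so did that of other marker lists. As deposited, gut markers had a mean of 11.14 in wild type, 10.07, 10.68 and 9.81 in the deficiency groups and 11.79 in haplo 4th. Flight muscle markers had 12.89 in wild type, 13.28, 13.26 and 13.25 in the deficiency groups and 11.81 under the label pof-mutant. Fat body markers had 11.33 ± 0.78 (SD) in wild type, 12.07 in haplo 4th and 10.12 under the label pof-mutant. Only the germline level was used as a covariate. On centred arrays the germline marker mean, over the 12 of 13 markers above 6 in wild type, was 9.95 to 10.19 in wild type and 9.01 to 9.13 in Df(2L)J-H/+. The mean was 8.53 to 9.0 in Df(2L)ED4651/+ and 8.86 to 9.59 in Df(3L)4470/+. It was 9.34 to 9.71 in haplo 4th. The array with the highest marker level, replicate 2 labelled pof-mutant at 10.82, also had the highest X difference, 0.18. The Dp(2;2)Cam3/+ triplo 4th arrays had marker levels of 8.47, 9.57 and 10.05 and X differences in the same order. The 2 measures also had the same order within wild type, Df(3L)4470/+, both haplo 4th groups and both pof-mutant labels. Within Df(2L)J-H/+ the array with the highest marker level had the lowest X difference. Within Df(2L)ED4651/+ the 2 measures had no common order. With the marker level as a covariate, the X difference was −0.08 in Df(2L)J-H/+, −0.05 in Df(2L)ED4651/+, −0.09 in Df(3L)4470/+, −0.05 in haplo 4th and −0.02 in the haplo 4th deficiency group. In Dp(2;2)Cam3/+ triplo 4th it changed from −0.06 to 0.01, a change of sign. The covariate was chosen after seeing the data, and groups and marker level overlap only in part. Its slope came from differences among replicates within groups, with all arrays of both pof-mutant labels included, replicate 2 among them. Those differences were wide in the duplication group and small in Df(2L)J-H/+ and wild type. The covariate values of Df(2L)J-H/+ thus rest mainly on arrays of other groups.

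**Figure D2:**
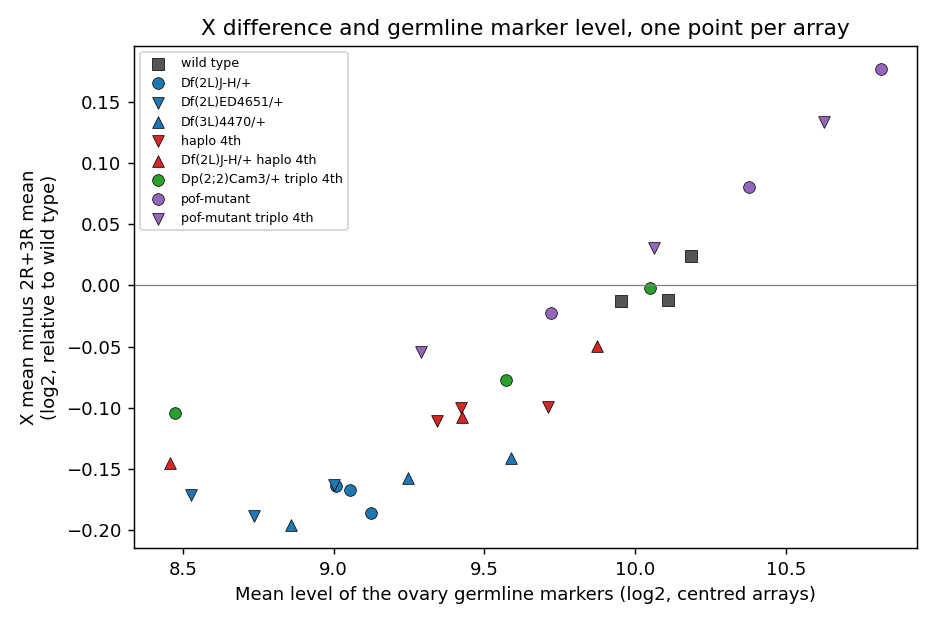
X mean minus 2R and 3R mean (y axis, log2, relative to wild type) against the mean level of the ovary germline markers (x axis, log2, centred arrays), with 1 point for each of the 27 arrays and a symbol for each group. The 9 deficiency arrays, with marker levels of 8.53 to 9.59, have X differences of −0.20 to −0.14, and the 3 wild type arrays, at 9.95 to 10.19, have −0.01 to 0.02.

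The X mean was below that of 2R and 3R at each of 3 levels of expression in the deficiency groups. The levels are those of wild type, which also enter each ratio, so this is a description only. In Df(2L)J-H/+, 486 X-linked genes with a wild type level of 6 to 8 had a mean log2 ratio of −0.06, 547 with a level of 8 to 10 had −0.23 and 152 above 10 had −0.08, against 0.04, 0.00 and 0.11 for the 2R and 3R genes of the same levels. In Df(2L)ED4651/+ the X had −0.08, −0.24 and −0.00 and 2R and 3R 0.04, −0.01 and 0.14, and in Df(3L)4470/+ the X had −0.07, −0.23 and −0.01 and 2R and 3R 0.04, −0.01 and 0.12.

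The spread over X-linked genes was close to that over 2R and 3R genes in the deficiency, haplo 4th and duplication groups. It was narrower than that over 2R and 3R genes under both pof-mutant labels. Its SD was 0.71, 0.72 and 0.66 for the X and 0.72, 0.73 and 0.67 for 2R and 3R in the 3 deficiency groups, and 0.48 for the X and 0.49 for 2R and 3R in haplo 4th. It was 0.56 and 0.57 in the haplo 4th deficiency group, 0.42 and 0.44 in Dp(2;2)Cam3/+ triplo 4th, and for the labels pof-mutant and pof-mutant triplo 4th it was 0.62 and 0.70, and 0.35 and 0.41. For Df(2L)J-H/+ the middle 90% of X-linked genes ran from −1.18 to 1.00, and 61.0% were below 0, against 49.3% of 2R and 3R genes. The shift of the X mean was smaller than the spread of single genes.

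Single genes were tested with limma over all 7386 expressed genes, and a gene is called changed when its Benjamini-Hochberg adjusted p was under 0.05. In Df(2L)J-H/+, 95 X-linked genes were called higher and 139 lower (8.02% and 11.7% of 1185), whereas 11% of all genes tested were called higher and 6.81% lower. In Df(2L)ED4651/+ the counts were 111 higher and 175 lower (9.37% and 14.8%), beside 13.0% and 8.87% of all genes. In Df(3L)4470/+ they were 80 higher and 115 lower (6.75% and 9.70%), beside 9.69% and 5.27%. In each deficiency group the share called lower was above that of all genes and the share called higher was below it. These comparisons share the wild type arrays and are not independent of each other.

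The same 2 shares were set side by side for the other groups. In haplo 4th, 20 X-linked genes were called higher and 23 lower (1.69% and 1.94%), beside 2.44% and 1.41% of all genes. In the haplo 4th deficiency group they were 53 and 73 (4.47% and 6.16%), beside 5.61% and 4.29%. In Dp(2;2)Cam3/+ triplo 4th they were 16 and 14 (1.35% and 1.18%), beside 2.02% and 1.29%, so the share called lower there was close to that of all genes. In the arrays labelled pof-mutant 9 were called higher and 17 lower (0.759% and 1.43%), beside 1.35% and 2.42%, and in those labelled pof-mutant triplo 4th 2 and 4 (0.169% and 0.338%), beside 0.447% and 0.961%. Without their replicate 2 these counts were 2 and 7, and 2 and 2. The total for the label pof-mutant was 55 without its replicate 1 and 670 without its replicate 3, so it rested on which arrays entered.

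**Figure D3:**
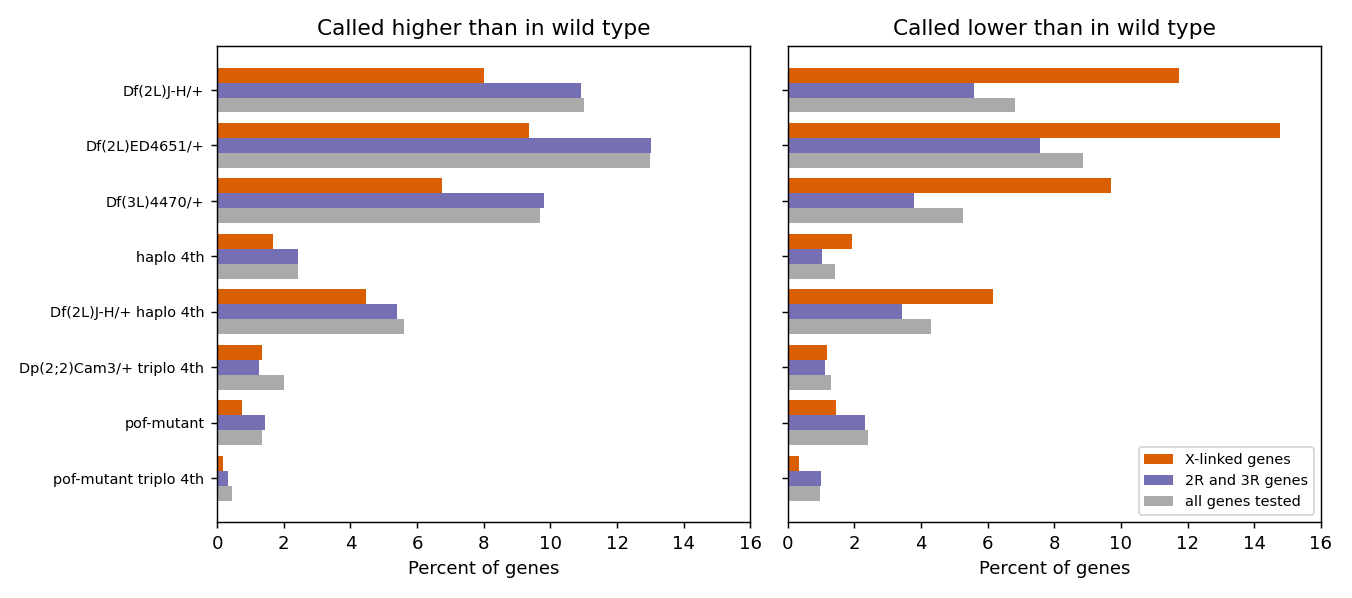
Percent of genes called higher (left) and lower (right) than in wild type in each group (bars from 0; limma, adjusted p under 0.05), for 1185 X-linked genes, 3209 genes of 2R and 3R and all 7386 genes tested. In the 3 deficiency groups the X bar for lower genes, 9.70% to 14.8%, is longer than that for all genes, 5.27% to 8.87%.

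The counts rose when the 6 arrays labelled pof-mutant or pof-mutant triplo 4th, which enter the shared error, were left out. In that fit, chosen after seeing the data, Df(2L)J-H/+ had 210 X-linked genes called higher and 379 lower, beside 25.7% and 23.8% of all genes. Df(2L)ED4651/+ had 235 and 417, beside 27% and 26.3%, and Df(3L)4470/+ had 199 and 338, beside 23.4% and 20.2%. Haplo 4th had 115 and 136, beside 12.7% and 9.3%, the haplo 4th deficiency group had 184 and 247, beside 18.2% and 15.9%, and Dp(2;2)Cam3/+ triplo 4th had 70 and 121, beside 9.36% and 7.8%. The X-linked shares called lower in that fit were 32.0%, 35.2%, 28.5%, 11.5%, 20.8% and 10.2%, all above those of all genes. Centring mattered as well, since each array had been shifted to the wild type mean of the expressed genes. As deposited, the median of all genes was −0.25, −0.24 and −0.27 in the 3 deficiency groups, and without centring the X-linked counts were 46 higher and 298 lower, 60 and 350, and 39 and 291. Changes of genes are relative to that shift.

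Counts of genes whose arrays did not overlap wild type do not use that error. The 3 Df(2L)J-H/+ arrays lay above all 3 wild type arrays for 265 X-linked genes and below them for 485 (22.4% and 40.9%), against 30.0% and 31.6% of all genes. In Df(2L)ED4651/+ the counts were 321 and 504 (27.1% and 42.5%), against 34.0% and 33.5%, and in Df(3L)4470/+ 249 and 453 (21.0% and 38.2%), against 29.1% and 28.9%. In haplo 4th they were 207 and 383 (17.5% and 32.3%), against 22.3% and 25.7%, and in the haplo 4th deficiency group 236 and 320 (19.9% and 27%), against 23.6% and 22.0%. Dp(2;2)Cam3/+ triplo 4th had 108 and 226 (9.11% and 19.1%), against 13.0% and 15.1%.

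Among the X-linked genes called higher in the deficiency groups, alpha-Man-Ia, which encodes a Golgi mannosidase that trims N-glycans, had the largest ratio of those not known only by a CG number. Its log2 levels were 7.18, 7.61 and 6.73 in wild type and 10.70, 10.11 and 10.34 in Df(2L)J-H/+. They were 9.67, 10.31 and 9.99 in Df(2L)ED4651/+ and 9.97, 10.50 and 10.35 in Df(3L)4470/+. No deficiency array overlapped wild type. The log2 ratios were 3.21 ± 0.75 (SE), 2.82 and 3.10, or 9.25-fold, 7.04-fold and 8.56-fold (limma, adjusted p = 0.0068, 0.012 and 0.0081). Haplo 4th had 8.11, 8.25 and 9.08, above wild type in all arrays, with a log2 ratio of 1.31 that was not called (limma, adjusted p = 0.39). With the germline marker level as a covariate the ratio was 1.68 in Df(2L)J-H/+ and 0.82 in Df(2L)ED4651/+, neither of them called, and 1.82 in Df(3L)4470/+, which was.

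Uros1, for uroporphyrinogen III synthase of the haem pathway, rose in all 3 deficiency groups as well. Its levels were 6.81, 6.88 and 6.67 in wild type and between 8.73 and 9.34 in the 9 deficiency arrays. The log2 ratios were 2.31 ± 0.28, 2.11 and 2.28, or 4.31-fold to 4.96-fold (limma, adjusted p = 5.1e-05, 7.0e-05 and 4.4e-05). It was also called in the haplo 4th deficiency group at 1.35 and in Dp(2;2)Cam3/+ triplo 4th at 1.29, while haplo 4th had 0.95 with an adjusted p of 0.060 (limma). Its levels in the haplo 4th arrays, 7.51 to 7.96, lay between those of wild type and the deficiency groups without overlap. With the germline covariate the 3 deficiency ratios were 1.74, 1.36 and 1.80, all called.

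The next gene along the X, Rbm13, named for an RNA-binding motif, was called higher in those 3 groups, in both haplo 4th groups and in Dp(2;2)Cam3/+ triplo 4th. Its levels were 7.04, 7.44 and 7.34 in wild type and 8.42, 8.83 and 8.42 in haplo 4th, where the ratio was 1.28 ± 0.22 (limma, adjusted p = 0.0024). The other 5 ratios were 0.66, 0.85, 0.99, 0.78 and 1.02, and no array of these 6 groups overlapped wild type. Without centring the call was lost in Df(2L)ED4651/+ (0.60), Df(2L)J-H/+ (0.42) and the haplo 4th deficiency group (0.63). Uros1 and Rbm13 lie side by side with no coding gene between them and do not overlap in the gene table.

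Shifted (shf), a secreted factor of Hedgehog signalling, had levels of 7.38, 7.80 and 7.16 in wild type and 9.04 to 9.64 in the 9 deficiency arrays, with log2 ratios of 1.67, 1.97 and 1.95 (limma, adjusted p = 0.0026, 0.00061 and 0.00069). It was also called in the haplo 4th deficiency group, at 1.37 ± 0.34. Vanin-like, a pantetheinase family gene, had 6.45, 6.48 and 6.28 in wild type and 7.10 to 8.15 in the deficiency arrays. It was called higher in 6 groups, with ratios of 1.0, 1.29 and 1.42 in the deficiency groups, 1.08 in haplo 4th, 1.67 in the haplo 4th deficiency group and 1.22 in Dp(2;2)Cam3/+ triplo 4th, and the arrays of those groups were above all wild type arrays. With the germline covariate its call was lost in haplo 4th (0.84), Df(2L)ED4651/+ (0.76) and Df(2L)J-H/+ (0.59). GIIIspla2, a secreted phospholipase A2, had 1.10, 1.06 and 1.28 in the deficiency groups, and CG10802, which has no symbol, had 1.78, 1.86 and 1.74, and these 6 calls were kept with the covariate. Usp2, a ubiquitin-specific protease, rose by 1.43, 1.11 and 1.22. Its ratios in haplo 4th and the duplication group were 0.19 and 0.12, not called, and with the germline covariate its call was lost in Df(2L)ED4651/+ (0.40).

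**Figure D4:**
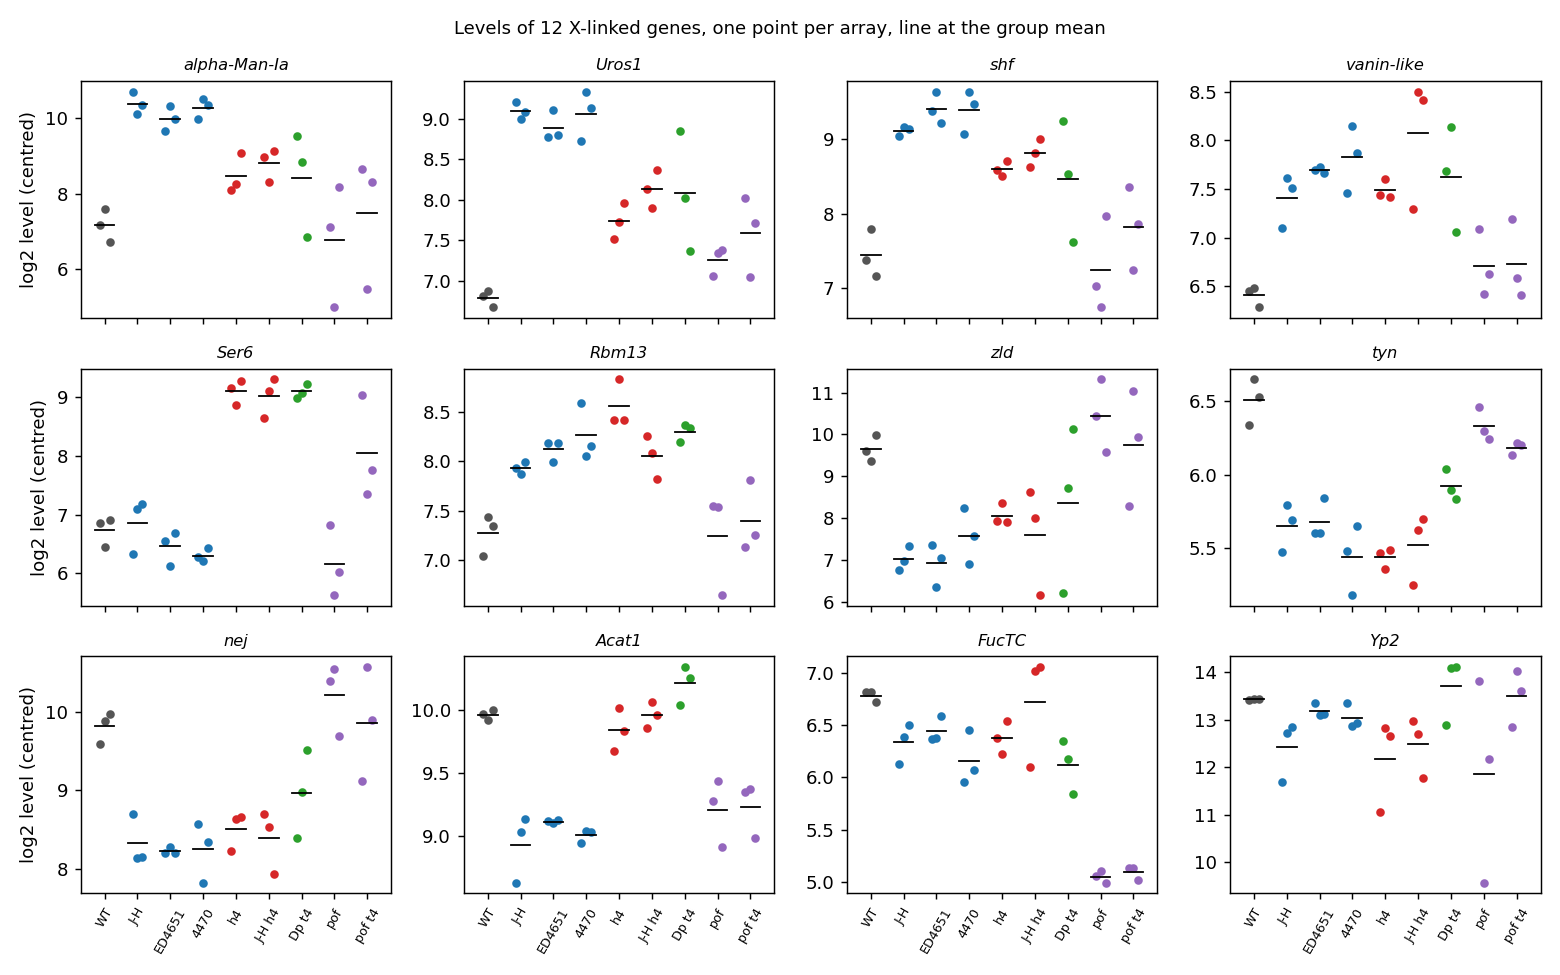
Log2 levels on centred arrays (y axes) of 12 X-linked genes in the 9 groups (x axes; WT, wild type; h4, haplo 4th; t4, triplo 4th), with 1 point for each array and a line at the group mean (n = 3). Alpha-Man-Ia, Uros1 and shf are highest in the 3 deficiency groups, Ser6 in the duplication group and both haplo 4th groups, and FucTC is lowest in the arrays labelled pof-mutant and pof-mutant triplo 4th.

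Genes that fell in the deficiency groups included maternal and germline genes, with wide standard errors. Zelda (zld), the transcription factor that starts zygotic transcription in the embryo, had levels of 9.61, 9.37 and 9.98 in wild type, 6.76, 6.97 and 7.33 in Df(2L)J-H/+ and 7.35, 6.35 and 7.05 in Df(2L)ED4651/+. The ratios were −2.63 ± 0.78 and −2.73 (limma, adjusted p = 0.025 and 0.018), and −2.09 in Df(3L)4470/+ was not called (limma, adjusted p = 0.074). Wispy (wisp), the poly(A) polymerase of the egg, had 10.17, 9.90 and 10.45 in wild type and 7.64, 7.84 and 8.09 in Df(2L)J-H/+, with ratios of −2.32 ± 0.72 there and −2.39 in Df(2L)ED4651/+ (limma, adjusted p = 0.032 and 0.024). The eggshell gene dec had 10.18, 11.21 and 11.86 in wild type and 6.49, 5.72 and 5.52 in Df(2L)ED4651/+, a ratio of −5.17 ± 1.83 (limma, adjusted p = 0.048), while −5.14 in Df(2L)J-H/+ missed the call with an adjusted p of 0.056 (limma). The dec levels of 5.72 and 5.52 were below 6, where the study treated genes as not measured, so the size of its fall is uncertain. In the 3 duplication arrays, ordered by rising germline marker level, zld was 6.22, 8.73 and 10.14 and dec was 5.14, 11.41 and 11.87. Zld also had the order of the markers within wild type, Df(2L)J-H/+ and Df(2L)ED4651/+. Dec did not within wild type or Df(2L)ED4651/+. With the germline covariate the Df(2L)J-H/+ ratios were −0.57 for zld and −0.40 for wisp, and the Df(2L)ED4651/+ ratios were −0.05 for zld, 0.10 for wisp and −0.98 for dec, none of them called. Other genes called lower in Df(2L)ED4651/+ whose ratio turned positive under the covariate were yin, sofe, Gcna, CG3679, Rbf, swa and fs(1)N.

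Other falls were called with the germline covariate too, in most of their groups. Nejire (nej), the CBP histone acetyltransferase, had 9.59, 9.88 and 9.98 in wild type and 7.83 to 8.70 in the 9 deficiency arrays. Its ratios were −1.49 ± 0.33, −1.58 and −1.56, and it was also called lower in haplo 4th at −1.31 and with the J-H deficiency added at −1.42 (limma, adjusted p = 0.0046, 0.0025, 0.0032, 0.028 and 0.0088). With the covariate these 5 ratios were −0.74, −0.61, −0.94, −0.88 and −0.82, and the call was lost only in Df(2L)ED4651/+. Trynity (tyn), a zona pellucida domain protein of the apical matrix, had 6.34, 6.65 and 6.53 in wild type and 5.18 to 5.84 in the deficiency arrays. These deficiency levels were all below 6, where the study treated genes as not measured, so the size of the fall is uncertain. Tyn was called lower in 6 groups, at −0.86, −0.83, −1.07, −1.07, −0.99 and −0.58 for the 3 deficiency, 2 haplo 4th and duplication groups, and the 6 covariate ratios, −0.63 to −1.13, were also called. Nocte, required for the entrainment of circadian rhythms to temperature, had −0.77, −0.79 and −0.82 in the deficiency groups, −0.67 in haplo 4th and −0.83 in the haplo 4th deficiency group, all called. With the covariate the call of nocte was lost in Df(2L)ED4651/+ (−0.55).

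Further genes named by size in the deficiency groups were sov (small ovary), needed for ovary development, with −1.58, −1.95 and −1.94, and Muc11A, a mucin, with −1.31, −1.44 and −1.74. Boi, a Hedgehog co-receptor, had −1.48, −1.77 and −1.66, and CBP, a calcium-binding protein distinct from nej, had −1.92, −2.66 and −1.75. All 12 ratios were called. With the covariate CBP was called only in Df(2L)ED4651/+ (−0.84) and boi only in Df(3L)4470/+ (−0.75), with boi at −0.39 and −0.35 in the first 2 groups, while sov and Muc11A were called in all 3. CG15043 had levels of 9.85, 9.73 and 9.86 in wild type and 6.85 to 8.05 in the deficiency arrays, with ratios of −1.91, −1.87 and −2.70 (limma, adjusted p = 0.0013, 0.0011 and 5.8e-05). In the haplo 4th deficiency group it was 11.02, 11.23 and 11.31, a rise of 1.38 ± 0.35 (limma, adjusted p = 0.016). Haplo 4th without the deficiency had 11.15, 11.17 and 10.39, a ratio of 1.09 that was not called (limma, adjusted p = 0.087), and the difference between both haplo 4th groups was 0.28. The 9 arrays of deficiency alone were all below wild type for this gene, and the 6 arrays of both haplo 4th groups were all above it.

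In the groups from the compound chromosome 4 stock, the serine protease gene Ser6 had the largest rise, CG numbers aside. Its levels were 6.86, 6.44 and 6.90 in wild type, 9.15, 8.86 and 9.27 in haplo 4th, 8.65, 9.10 and 9.30 in the haplo 4th deficiency group and 8.98, 9.08 and 9.22 in Dp(2;2)Cam3/+ triplo 4th. All 9 arrays lay above wild type. The ratios were 2.36 ± 0.34, 2.28 and 2.36, or 5.14-fold, 4.87-fold and 5.14-fold (limma, adjusted p = 0.00053, 0.00025 and 0.00033). The arrays labelled pof-mutant triplo 4th, from a cross that also brought in a compound chromosome 4, had 9.04, 7.36 and 7.75, also above wild type, with a ratio of 1.32 that was not called (limma, adjusted p = 0.061). In the 3 groups of deficiency alone the ratios were 0.13, −0.27 and −0.43, none called. The rise of Ser6 was present with 1 copy and with 3 copies of chromosome 4, and both kinds of group came from a cross to C(4)RM. The part of the cross or of the copy number in this rise was not tested.

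CG8661 rose in haplo 4th (1.72 ± 0.41) and in both triplo 4th groups (2.44 and 1.71) and had −0.61, −1.02 and −0.25 in the deficiency groups. Obp18a, an odorant-binding protein gene, rose in both haplo 4th groups (1.51 and 1.39) and in the deficiency groups (1.06, 1.51 and 1.35). Its call was kept under the germline covariate in both haplo 4th groups (1.12 and 0.83) and lost in the 3 deficiency groups (0.37, 0.62 and 0.78). Karl, a lipocalin gene, rose in haplo 4th at 1.25, and the next of the 1185 genes, CG9360, with 1 coding gene between them, was called there at 1.57. Pdcd4, an inhibitor of translation initiation in other species, fell in both haplo 4th groups (−0.77 and −1.01) and Dp(2;2)Cam3/+ triplo 4th (−1.0), and had −0.08, −0.58 and −0.24 in the deficiency groups, not called. Pico, an actin regulator of the lamellipodin family, fell at −0.56, −1.15 and −0.67 in the same 3 groups. With the covariate the calls of Pdcd4 (−0.56) and pico (−0.47) were lost in haplo 4th and kept in the other 2. Lawc, which overlaps Trf2 so that their signals may be mixed, fell in both haplo 4th groups (−0.77 and −0.96). The genes CG12112 and ct, the latter a homeobox gene, fell in Dp(2;2)Cam3/+ triplo 4th at −1.78 and −0.91.

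In the arrays labelled pof-mutant and pof-mutant triplo 4th few genes were called, and FucTC, a fucosyltransferase gene, was among them for both. Its levels were 6.81, 6.82 and 6.72 in wild type, 5.06, 5.10 and 5.0 in the arrays labelled pof-mutant and 5.14, 5.14 and 5.02 in those labelled pof-mutant triplo 4th. All levels under these 2 labels were below 6, where the study treated genes as not measured, so the size of the fall is uncertain. The ratios were −1.73 ± 0.20 and −1.68, a 3.32-fold and a 3.22-fold fall (limma, adjusted p = 9.6e-06 and 1.7e-05), and none of the 6 arrays overlapped wild type. Acat1, an acetyl-CoA acetyltransferase of mitochondria, was 9.96, 9.91 and 10.00 in wild type, 9.27, 9.43 and 8.91 for the label pof-mutant and 9.35, 9.37 and 8.98 for pof-mutant triplo 4th, with ratios of −0.75 ± 0.15 and −0.73 (limma, adjusted p = 0.0054 and 0.011). It also fell in the deficiency groups, at −1.03, −0.85 and −0.95, and was at −0.12, −0.00 and 0.25 in haplo 4th, haplo 4th with the deficiency and the duplication group, where it was not called.

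Papillote (pot), a zona pellucida domain gene of the cuticle, had 9.42, 9.91 and 9.18 in wild type and 6.69, 4.65 and 8.50 in the arrays labelled pof-mutant, a ratio of −2.89 ± 0.68 (limma, adjusted p = 0.020), with its lowest value in replicate 2. That value of pot, 4.65, was below 6, where the study treated genes as not measured, so the size of its fall is uncertain. The fall of Ldsdh1, a lipid droplet dehydrogenase gene, was −1.77 and that of CG1368 was −1.70. CG14406 fell under both pof-mutant labels (−1.56 and −1.12) and also in Df(3L)4470/+ (−1.31) and Df(2L)J-H/+ (−1.14). Genes called higher under the label pof-mutant included pira at 1.61, dgt4, a subunit of the augmin complex, at 1.58, Kmn1, a kinetochore gene, at 1.18, and the phosphatase Pp4-19C at 0.94. The first 3 had adjusted p-values of 0.048, 0.049 and 0.044 (limma) and were not called without centring. DIP1 rose under both pof-mutant labels (0.74 and 0.49) and CG17167 under the label pof-mutant (1.07). An 18S ribosomal RNA pseudogene near the centromere, 18SrRNA-Psi:CR41602, was called lower in the 3 deficiency groups, the duplication group and both pof-mutant labels (−0.82, −0.88, −1.17, −1.59, −1.39 and −1.09). Its probes may also bind ribosomal RNA of the repeated copies, so this value is uncertain. Without replicate 2, FucTC (−1.76 and −1.70) and Acat1 (−0.87 and −0.80) were called under both pof-mutant labels, and DIP1 (0.68), CG14406 (−1.35) and the pseudogene (−1.34) under the label pof-mutant. The calls of pot (−1.91), Ldsdh1 (−1.19), CG1368 (−1.07), pira (0.95), dgt4 (1.06), Kmn1 (0.77), Pp4-19C (0.58) and CG17167 (0.73) were lost, as were those of CG8661 (1.24), DIP1 (0.49), CG14406 (−0.86) and the pseudogene (−0.94) under the label pof-mutant triplo 4th.

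Comparisons that did not use the wild type arrays found few X-linked changes. Between Df(3L)4470/+ and Df(2L)ED4651/+, which share the Oregon R cross, 1 X-linked gene was called higher and 0 lower, beside 0.244% and 0.217% of all genes, and the X minus 2R and 3R difference was 0.01. That gene was CG43133, at 6.52, 6.69 and 6.58 in Df(2L)ED4651/+ and 8.12, 8.56 and 8.47 in Df(3L)4470/+, a difference of 1.79 ± 0.33 (limma, adjusted p = 0.0083). The same gene was 6.28, 6.24 and 6.23 in wild type, 9.08, 8.48 and 8.70 in Df(2L)J-H/+, 8.18 to 9.24 in haplo 4th, 8.33 to 9.17 in the haplo 4th deficiency group and 5.90 to 6.58 in the duplication group. Each of these arrays was thus either at 5.90 to 6.69 or at 8.12 to 9.24, and the deficiency groups, of 1 kind of cross, fell on both sides.

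Between haplo 4th with and without the J-H deficiency, 1 X-linked gene was called higher and 3 lower, beside 0.162% and 0.379% of all genes, and the X minus 2R and 3R difference was 0.00. Scamp, a secretory carrier membrane protein gene, rose by 0.81 ± 0.18 (limma, adjusted p = 0.046). CkIalpha (casein kinase I alpha), the nuclear corepressor gene Smr, which lies 1 coding gene away from it, and CG12379 fell by 1.02 ± 0.17, 0.72 ± 0.15 and 0.66 ± 0.13 (limma, adjusted p = 0.0032, 0.037 and 0.019). Smr had 9.07, 8.48 and 8.46 in haplo 4th and 7.92, 7.96 and 7.98 in the double group, without overlap, and 9.22 to 9.32 in wild type. Without the 6 arrays of the pof-mutant labels in the fit, 25 were called higher and 34 lower in this comparison, beside 1.83% and 2.4% of all genes, and 4 and 0 between the 2 deficiency groups, beside 0.555% and 0.433%. Between the labels pof-mutant triplo 4th and pof-mutant, 0 X-linked genes were called in either direction, beside 0.0% of all genes, while 57 X-linked genes had an unadjusted p under 0.05 (limma), which is 4.81% of them, beside 5.73% of all genes.

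The effect of the Df(2L)J-H deficiency with 1 copy of chromosome 4 (against haplo 4th) differed from its effect with 2 copies (against wild type) for 14 X-linked genes, or 1.18%, beside 0.596% of all genes, in a test of the difference added after seeing the data. For these genes and all others the 2 effects also differ in cross, since Df(2L)J-H/+ had an Oregon R parent and the other groups did not.

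The X-linked genes were also read by function, in lists chosen with earlier results of these data known. Of 17 cell cycle and DNA maintenance genes, 0 were called higher and 2, 4 and 1 lower in the 3 deficiency groups. These were 11.8%, 23.5% and 5.88% of the list, beside 11.7%, 14.8% and 9.70% of all X-linked genes and 6.81%, 8.87% and 5.27% of all genes, so the share was near that of the X in Df(2L)J-H/+, above it in Df(2L)ED4651/+ and below it in Df(3L)4470/+. The list had medians of −0.70, −1.02 and −0.75 beside −0.14, −0.12 and −0.14 for all X-linked genes and −0.01, 0.00 and −0.02 for all genes. Cyclin D (CycD) was at −1.39 and −1.50 in the first 2 groups, roughex (rux), a Cyclin A inhibitor, at −1.23 and −1.35, and feo, a midzone microtubule protein of cytokinesis, at −2.33 in Df(2L)ED4651/+. The median of this list was 0.77 under the label pof-mutant, where none of its genes was called, and 0.30 without replicate 2. With the germline covariate CycD was at −0.26 and −0.04, rux at −0.29 and −0.12 and feo at −0.05, none of them called.

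Of 19 chromatin and RNA control genes, 5, 7 and 5 were called lower in the deficiency groups and 0, 1 and 0 higher, with medians of −0.47, −0.61 and −0.55. The shares called lower were 26.3%, 36.8% and 26.3% of the list, beside the 11.7%, 14.8% and 9.70% of all X-linked genes, for a list chosen with these results known. Trf2, a TBP-related factor, was at −1.36, −1.38 and −1.32, the histone methyltransferase gene Set2 at −1.07 and −1.20 in the first 2 groups, and trr, another histone methyltransferase, at −1.10, −1.09 and −1.07. HDAC6, a cytoplasmic deacetylase, was the gene called higher, at 0.43 in Df(2L)ED4651/+. Smr was called lower in all 3 (−0.55, −0.61 and −0.55) and again at −1.32 in the haplo 4th deficiency group, where e(y)3 (−1.06) and east (−0.82) were also called. With the germline covariate Trf2 was called only in Df(3L)4470/+ (−0.74) and Smr in Df(3L)4470/+ and both haplo 4th groups (−0.53, −0.59 and −1.30). The calls of Set2 (−0.25 and −0.12), of HDAC6 (0.26), of trr in Df(2L)ED4651/+ (−0.43) and of e(y)3 (−0.58) were lost, and trr in the other deficiency groups (−0.59 and −0.65) and east (−0.68) kept theirs.

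Of 18 genes of female fertility and the egg, 2, 3 and 1 were called lower in the deficiency groups and 3 in the haplo 4th deficiency group, with none called higher in any group. The shares in the deficiency groups, 11.1%, 16.7% and 5.56%, stood beside 11.7%, 14.8% and 9.70% of all X-linked genes, near them in the first 2 groups and below in the third. In the haplo 4th deficiency group the share was 16.7%, beside 6.16% of all X-linked genes and 4.29% of all genes. Fs(1)K10, which acts in dorsoventral patterning of the oocyte, fell by 1.01, 0.83 and 0.74 in the deficiency groups and by 0.88 in the haplo 4th deficiency group. In that last group mei-P26, a factor of germline differentiation, and egh, a glycosyltransferase, were called as well, at −1.25 and −0.78. Swallow (swa), needed for bicoid RNA localisation, and fs(1)N were at −2.30 and −2.07 in Df(2L)ED4651/+. Yp1 had a wild type level of 13.59 and fell by 0.92 ± 0.30 in Df(2L)J-H/+ (limma, adjusted p = 0.041), whereas Yp2, with ratios from −1.58 to 0.26, and Yp3, from −1.96 to 0.20, were not called in any group. The call of Yp1 was lost with the germline covariate (−0.61), as were those of fs(1)K10 in Df(2L)ED4651/+ (−0.35) and Df(3L)4470/+ (−0.43), and the calls of fs(1)K10 in Df(2L)J-H/+ (−0.64) and the haplo 4th deficiency group (−0.58), of mei-P26 (−1.0) and of egh (−0.80) were kept. The chorion genes Cp36 and Cp38 had ratios between −2.66 and 3.26 with no call, since their levels varied as widely among replicates as the other eggshell genes did.

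Of 23 genes of neuronal excitability and synapses, 0 were called higher in any comparison with wild type, and 1, 3 and 2 were lower in the deficiency groups, or 4.35%, 13.0% and 8.70% of the list beside 11.7%, 14.8% and 9.70% of all X-linked genes, so no share was above that of the X. Among them were nonA (−0.84, −0.84 and −1.05), an RNA-binding protein of the visual and courtship song systems, and sdk (−0.98 and −0.78 in the last 2). In the haplo 4th deficiency group the median of the list was −0.51 and 3 were lower (13.0%, beside 6.16% of all X-linked genes and 4.29% of all genes). They were the potassium channel SK at −1.57, the microtubule-associated futsch at −1.38 and the phosphodiesterase dnc at −0.96. In haplo 4th, with 1 copy of chromosome 4 and no deficiency, none was called and the median was −0.27. Of 23 signalling and development genes, 1 was higher in each deficiency group, the phosphatase subunit flw (0.70, 0.75 and 0.74), and 3, 3 and 2 were lower (13.0%, 13.0% and 8.70%, near the shares of all X-linked genes), including pcx (−0.57, −0.73 and −0.76) and dome (−1.07 in Df(2L)ED4651/+), the receptor of the JAK/STAT pathway. Of 13 metabolic genes, sesB, the mitochondrial ADP/ATP carrier, rose by 0.46, 0.48 and 0.49 in the deficiency groups from a wild type level of 14.13, but not past the test without centring. Of 10 stress and protein folding genes, Atg5, of autophagy, was at −0.89, −0.94 and −0.91 and the ubiquitin gene Ubi-p5E at 0.74 in Df(2L)J-H/+ and 0.56 in Df(3L)4470/+. The calls of Atg5 (−0.51, −0.46 and −0.60), sesB (0.21, 0.15 and 0.28), sdk (−0.39 and −0.40) and dome (−0.24) were lost with the germline covariate, as were those of flw in the first 2 deficiency groups (0.35 and 0.30) and of Ubi-p5E in Df(3L)4470/+ (0.37). Those of nonA, pcx, SK, futsch and dnc were kept in the groups named here.

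The genes of the dosage compensation system examined here, Sxl and mof, did not pass the test. Sxl, the switch gene of sex determination, had a wild type level of 8.72 and ratios from −0.44 in Df(2L)J-H/+ to 0.28 under the label pof-mutant (0.16 without replicate 2). Mof, the acetyltransferase of the MSL complex, had a wild type level of 6.66 and ratios of −0.85, −0.85 and −0.59 in the deficiency groups and 0.68 under the label pof-mutant (0.30 without replicate 2). The lowest deposited level of mof among the arrays was 5.17. This is below 6, where the study treated genes as not measured, so the size of its ratios is uncertain. For roX1 and roX2, the non-coding RNAs of the complex, no probe set was annotated to that gene alone, and they were not analysed here.

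Along the X, the genes were placed in order from telomere to centromere and divided into 10 blocks of 118 or 119 genes. In the 3 deficiency groups 9 of 10 blocks had a mean below 0 (−0.05 to −0.25), and the fifth block, from CG12118 to l(1)10Bb, had a mean above 0, at 0.08, 0.11 and 0.08, against −0.17, −0.17 and −0.16 for the other 9 together. Of its 119 genes, 12, 18 and 11 were called higher (10.1%, 15.1% and 9.24%, beside 8.02%, 9.37% and 6.75% of all X-linked genes) and 10, 12 and 8 lower (8.40%, 10.1% and 6.72%, beside 11.7%, 14.8% and 9.70%). The genes with the highest mean ratio in it were alpha-Man-Ia, CG9686 (2.82, 2.22 and 2.56), CG15199 (2.18, 2.37 and 2.07) and CG15201 (1.46, 1.60 and 1.5). Its median was 0.03, 0.06 and −0.01, so the high mean rested in part on these genes. Without centring the block was below 0, at −0.16, −0.14 and −0.17, and still above the other blocks, at −0.41, −0.42 and −0.41. The fifth block was also the highest of the 10 in haplo 4th, the haplo 4th deficiency group and the duplication group, at −0.00, 0.05 and 0.02. All these groups were compared with the same wild type arrays. Under the label pof-mutant the fifth block was lowest at −0.08 and the other blocks lay between 0.02 and 0.19. Without replicate 2 the fifth block was at 0.01, within the range of the others, 0.00 to 0.10. With the X divided into 5 blocks, the middle block was highest in the deficiency groups at 0.01, 0.02 and 0.02, against −0.14 to −0.23 for the others.

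Called genes were spread over the whole X. The share called per block ran from 16.1% to 24.6% in Df(2L)J-H/+, from 19.5% to 28.8% in Df(2L)ED4651/+ and from 12.7% to 20.3% in Df(3L)4470/+. In Dp(2;2)Cam3/+ triplo 4th it ran from 0% to 5.08%. Under the label pof-mutant 9 of the 26 called genes lay in the tenth block, nearest the centromere, namely FucTC, aspr, AnxB10, Pp4-19C, Ntf-2, sol, DIP1, CG17167 and the ribosomal RNA pseudogene, 5 of them higher and 4 lower. They were 7.63% of the block, beside 2.19% called among all X-linked genes. Without replicate 2, 9 X-linked genes were called under that label, 2 higher and 7 lower, and 6 of them lay in the tenth block. The longest runs called the same way among genes that follow each other in the list of 1185 held 3 genes, all lower, with other coding genes between some of them. These were pcx, kz and fs(1)K10, of which the first 2 overlap, and Atg5, Dok and CBP, both in Df(2L)ED4651/+ and Df(2L)J-H/+, the latter run also in Df(3L)4470/+. In Df(2L)ED4651/+ lawc, Trf2 and Miga and mal, RhoGAP19D and CG1812 formed further runs. No run of genes called higher held more than 2, among them Uros1 and Rbm13. The gene table is of a later assembly than the array design, so only the order of genes was used and no coordinates are given.

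**Figure D5:**
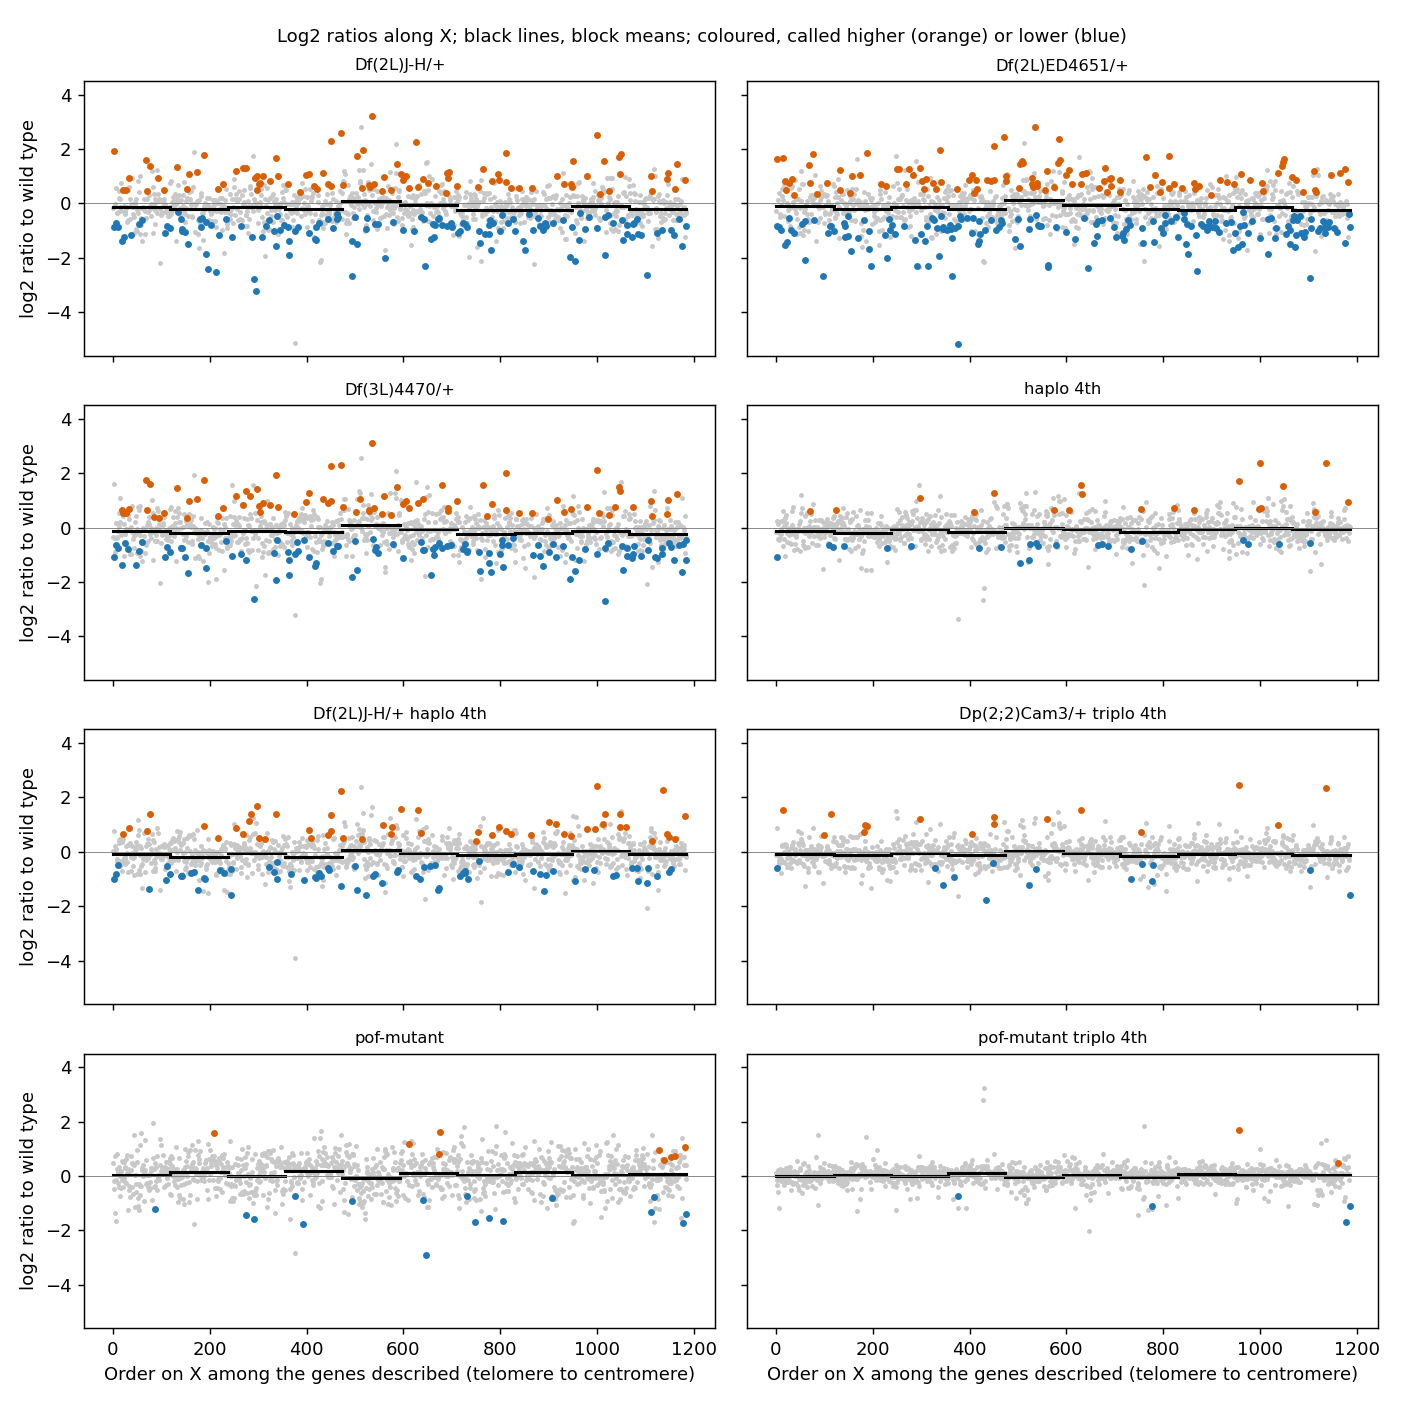
Log2 ratio to wild type (y axes) of each of 1185 X-linked genes in their order from telomere to centromere (x axes, rank) in the 8 groups. Orange points were called higher and blue points lower (limma, adjusted p under 0.05), grey points were not called, and black lines are the means of 10 blocks. The fifth block is above 0 in the 3 deficiency groups, at 0.08 to 0.11, and called genes lie along the whole chromosome.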

How the data were processed

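The authors deposited log2 expression values for 18952 probe sets on 27 arrays, made by robust multi-array analysis (RMA), which corrects background, normalizes probes between arrays and summarizes probe sets. The number of arrays limits the precision, and the depth of reads does not apply. The array annotation gave 1 gene symbol for 13646 probe sets, several for 402 and none for 4904. Of those with 1 symbol, 13634 matched the gene table (Release 6), giving 11941 genes, each with its highest probe set. Genes with a wild type mean above 6 (7386) were kept, as in the study, and each array was centred so that its mean over them equalled that of wild type. Log2 ratios are differences of group means.

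All genes were fitted with limma 3.58.1 (R 4.3.3), with 1 mean per group over 27 arrays, two-sided, Benjamini-Hochberg adjusted over all 7386 genes at 0.05. The fit was tested on simulated data. X means are descriptions. Alternatives were no centring, centring on the median, other level filters, probe sets without _s_at and _x_at, the 6 arrays of a comparison alone, a replicate block and leaving out each replicate. The germline covariate, the fit without the arrays labelled pof-mutant or pof-mutant triplo 4th and the test of the difference between deficiency effects were added after seeing the data.

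The members, lists and naming rule were chosen with earlier results of these data known. Named were, per comparison with wild type, the 4 largest rises and falls with a symbol and no overlap of arrays, the most changed called gene without a symbol each way, the 6 called most often each way, up to 3 each way in the other comparisons, up to 4 called genes of each list, and Yp1, Yp2, Yp3, Sxl, mof, roX1 and roX2. Genes outside that rule, such as those of the fifth block, of runs, and trr, HDAC6, e(y)3, east, egh, Cp36, Cp38, dnc, flw, pcx and CG9360, were named after their values were seen. The labels call the replicates biological. Replicate numbers were not used to pair the samples in the main fit.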

Additional observations from a re-analysis of the deposited data

Results flagged for a closer look

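For 14 X-linked genes the effect of Df(2L)J-H among haplo 4th flies (haplo 4th with against without the deficiency) differed from its effect with 2 copies of chromosome 4 (Df(2L)J-H/+ against wild type) in limma's test of that difference. The difference was negative for CG43133 (−2.47 ± 0.47 SE, adjusted p = 0.021), Uros1 (−1.90 ± 0.39, 0.037), Smox (−1.51 ± 0.32, 0.040) and UBL3 (−0.98 ± 0.17, 0.019). It was positive for CG15043 (2.19 ± 0.49, adjusted p = 0.043), CG14406 (1.68 ± 0.37, 0.042), raskol (1.19 ± 0.24, 0.037), Acat1 (1.15 ± 0.21, 0.019) and pcm (0.97 ± 0.22, 0.050). It was also positive for Sec16 (0.96 ± 0.18, adjusted p = 0.022), tyn (0.94 ± 0.20, 0.040), CoRest (0.87 ± 0.20, 0.043), pdgy (0.74 ± 0.17, 0.045) and Rip11 (0.74 ± 0.16, 0.042).

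In these genes the ratio of Df(2L)J-H/+ to wild type was the larger of the 2 effects, for example 2.31 for Uros1 against 0.40 in the haplo 4th background, −1.03 for Acat1 against 0.12 and −1.91 for CG15043 against 0.28. The ratios of Df(2L)ED4651/+ and Df(3L)4470/+, which come from the same kind of cross to Oregon R and share the wild type arrays, were 2.11 and 2.28 for Uros1, −0.85 and −0.95 for Acat1 and −1.87 and −2.70 for CG15043. The exception was CG43133, whose 3 deficiency ratios were 2.50, 0.34 and 2.13. The part of the cross in these differences was not tested. The count ranged from 0 to 5 when 1 array was left out, and it was 5 with a replicate block, 3 with a wild type mean above 8, 23 with no filter, 32 with the germline covariate and 201 without the 6 arrays of the pof-mutant labels.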

How the results depend on the processing

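X mean differences kept their sign under every alternative run in the 3 deficiency groups and the 2 haplo 4th groups against wild type, and the number of called genes did not keep its size. The cause was not tested unless named.

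With the ovary germline level as a covariate the X minus 2R and 3R differences were −0.0780, −0.0514, −0.0861, −0.0487 and −0.0238 for Df(2L)J-H/+, Df(2L)ED4651/+, Df(3L)4470/+, haplo 4th and the haplo 4th deficiency group (−0.17, −0.17, −0.16, −0.10 and −0.10 in the main analysis), 0.00520 for Dp(2;2)Cam3/+ triplo 4th (−0.06) and −0.0347 for Df(3L)4470/+ against Df(2L)ED4651/+ (0.01). X-linked calls were then 162 for Df(2L)ED4651/+, 61 for the duplication group, 255 for pof-mutant, 27 for pof-mutant triplo 4th, 29 for haplo 4th with against without the deficiency and 2 each for pof-mutant triplo 4th against pof-mutant and Df(3L)4470/+ against Df(2L)ED4651/+. The Df(2L)ED4651/+ ratio turned positive for yin (0.29), wisp (0.10), sofe (0.0855), Gcna (0.25), CG3679 (0.18), Rbf (0.0608), swa (0.32) and fs(1)N (0.0910). Among calls of named genes, 138 held and 71 were lost.

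Without the 6 arrays of the pof-mutant labels the X-linked calls were 589, 652, 537, 251, 431 and 191 for Df(2L)J-H/+, Df(2L)ED4651/+, Df(3L)4470/+, haplo 4th, the haplo 4th deficiency group and the duplication group (234, 286, 195, 43, 126 and 30 in the main fit), 59 for haplo 4th with against without the deficiency and 4 between the 2 deficiency groups. Fitted on their own 6 arrays, the 8 groups against wild type had 629, 719, 542, 366, 287, 16, 1 and 1 calls, and Df(3L)4470/+ against Df(2L)ED4651/+ had 7. With no filter on low values the calls were 420, 518 and 413 in the deficiency groups, 199 in the haplo 4th deficiency group, 10 in pof-mutant triplo 4th, 9 for haplo 4th with against without the deficiency and 2 between the 2 deficiency groups, and the X differences were −0.14, −0.14, −0.13 and −0.0811 in the deficiency and haplo 4th groups. With a wild type mean above 8 (fewer genes) the calls were 140, 181, 24, 81, 19, 17 and 2 for Df(2L)J-H/+, Df(2L)ED4651/+, haplo 4th, the haplo 4th deficiency group, the duplication group, pof-mutant and pof-mutant triplo 4th, 2 for haplo 4th with against without the deficiency and 0 between the 2 deficiency groups, and the X differences of the deficiency groups were −0.22, −0.22 and −0.20. The test of the difference between deficiency effects gave 23, 3, 32, 5 and 201 X-linked calls with no filter, a mean above 8, the covariate, the replicate block and none of the 6 arrays of the pof-mutant labels, against 14.

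Without centring Df(3L)4470/+ had 330 calls and haplo 4th with against without the deficiency had 8, and centred on the median the latter had 11. It had 2 without _s_at and _x_at probe sets. With a mean over all arrays above 6, Df(3L)4470/+ against Df(2L)ED4651/+ had 2. Of calls against wild type, 40.6%, 38.8%, 41% and 42.1% were higher in the deficiency groups and the haplo 4th deficiency group, and 13.4%, 14.6%, 11.8% and 24.8% without centring. Centred on the median the split was 13 higher and 24 lower in haplo 4th, 16 and 23 in the duplication group and 0 and 4 in pof-mutant triplo 4th (20 and 23, 16 and 14, and 2 and 4 in the main fit), and without centring pof-mutant triplo 4th had 1 and 7.

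Leaving out each replicate in turn gave 91 to 145 calls in Df(2L)J-H/+, 135 to 196 in Df(2L)ED4651/+, 80 to 188 in Df(3L)4470/+, 7 to 11 in haplo 4th, 46 to 106 in the haplo 4th deficiency group, 10 to 27 in the duplication group, 8 (without wild type replicate 3) to 670 (without pof-mutant replicate 3) in pof-mutant and 2 to 19 (without its replicate 1) in pof-mutant triplo 4th. It gave 1 to 4 for haplo 4th with against without the deficiency, 0 to 4 for pof-mutant triplo 4th against pof-mutant and 0 to 1 for Df(3L)4470/+ against Df(2L)ED4651/+. The lowest counts came without wild type replicate 3 in the first 2 groups, without their own replicate 2 in Df(3L)4470/+ and the duplication group and without its own replicate 3 in the haplo 4th deficiency group. The X differences were −0.18 to −0.16, −0.18 to −0.16, −0.18 to −0.15, −0.11 to −0.0914, −0.13 to −0.08, −0.09 to −0.04, 0.03 to 0.13 and −0.01 to 0.08 in the 8 groups, and −0.02 to 0.03, −0.09 to 0.01 and −0.00 to 0.03 in the 3 other comparisons.

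Over all groups, same-numbered replicates had no common deviation (108 pairs of arrays, r from −0.80 to 0.83, median −0.02, 37 above 0.1). Some groups did deviate together. Between pof-mutant and pof-mutant triplo 4th r was 0.08, 0.83 and 0.49 for replicates 1, 2 and 3. Between Df(2L)ED4651/+ and Df(3L)4470/+ it was 0.52, 0.48 and −0.10. Whether such arrays were handled together is not given by the labels, and the main fit did not pair them. With a replicate block the X-linked calls were 216, 268, 186, 33, 115, 27, 20 and 5 in the 8 groups, 3, 0 and 1 in the other comparisons, all within 1.5 times the main counts. With 3 arrays a group the standard errors were wide for genes such as dec (1.83), zld (0.78) and wisp (0.72), against 0.14 for tyn.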
